A study of Arabidopsis thaliana with 8 samples.

Results

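The regions described here are 31 CO:CIT peaks shared by both replicates of *SUC2::CO:CIT* whose summit lay inside an annotated noncoding RNA gene of *Arabidopsis thaliana*. They were selected on peak calls and positions: a replicate 1 peak was kept where it overlapped a replicate 2 peak by at least 1 bp and where its summit fell in a gene of biotype lncRNA, ncRNA or antisense_RNA and in no protein-coding gene of the TAIR10.1 RefSeq annotation, chromosomes 1 to 5. They were 31 of 16861 shared peaks, which made up 80.1% of the 21054 replicate 1 peaks. Fold enrichments, p-values and the sharing between replicates therefore chose these peaks and are given as a description.

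The study profiled CONSTANS (CO) on chromatin of whole seedlings grown under long days. Both genotypes were in the Col-0 background and carried the same transgene, in which the *SUC2* promoter, active in phloem companion cells, drives CO fused to the fluorescent protein CIT. *SUC2::CO:CIT* had a wild-type *ABA1* gene, and *SUC2::CO:CIT aba1-6* carried in addition a mutant allele of this abscisic acid (ABA) synthesis gene. Each genotype had 2 ChIP libraries, precipitated with GFP-Trap nanobodies from 5 g of pooled seedlings each, and 2 input libraries. Companion cells are a minority of a seedling, and protein expressed from a strong phloem promoter need not occupy the sites that the endogenous protein occupies.

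CO is a B-box and CCT-domain transcription factor that activates the florigen gene *FT* in long days, together with NF-Y subunits. Its CCT domain contacts elements with the core TGTG, while NF-Y complexes are known for the CCAAT box. Noncoding RNA genes include antisense transcripts of coding genes, precursors of small RNAs such as microRNAs and trans-acting siRNAs, and transcripts of unknown function that arise next to promoters. In plants, antisense noncoding RNAs are best known from the floral repressor *FLC*.

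Sequence was not used in the selection. The 100 bp around selected replicate 1 summits are printed below from the TAIR10.1 genome, forward strand, 5′ to 3′. The first pair comes from the noncoding genes with the strongest peaks after AT3G06355, and capitals mark each TGTG or its reverse complement CACA.
AT3G06125 summit, chr3:1849476-1849575: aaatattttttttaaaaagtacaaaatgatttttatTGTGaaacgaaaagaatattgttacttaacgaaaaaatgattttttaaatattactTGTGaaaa
AT2G24735 summit, chr2:10532794-10532893: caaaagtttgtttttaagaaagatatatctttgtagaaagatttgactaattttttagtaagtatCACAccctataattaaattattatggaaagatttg

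The next set shows AT2G44798, the noncoding gene that held 3 of the peaks. Capitals mark the longest run of A and T bases, which was 13, 20 and 19 bp in the order printed.
AT2G44798, summit farthest from the 5′ end, chr2:18469586-18469685: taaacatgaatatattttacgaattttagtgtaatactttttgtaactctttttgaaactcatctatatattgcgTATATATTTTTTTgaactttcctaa
AT2G44798, summit nearest the 5′ end, chr2:18470960-18471059: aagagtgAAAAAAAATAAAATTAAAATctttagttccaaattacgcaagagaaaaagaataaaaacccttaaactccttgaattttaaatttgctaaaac
AT2G44798, summit between them, chr2:18470600-18470699: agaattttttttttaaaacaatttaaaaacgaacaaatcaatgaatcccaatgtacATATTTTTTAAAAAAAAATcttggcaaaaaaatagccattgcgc

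A further set comes from antisense genes whose summit lay just upstream of the start of the protein-coding gene on the other strand. Capitals again mark the longest run of A and T bases, of 9 to 13 bp within these 100 bp.
AT1G30282, upstream of AT1G30280, chr1:10664693-10664792: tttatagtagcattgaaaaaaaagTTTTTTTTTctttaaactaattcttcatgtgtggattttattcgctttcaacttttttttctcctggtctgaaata
AT2G46572, upstream of *LAC6*, chr2:19126155-19126254: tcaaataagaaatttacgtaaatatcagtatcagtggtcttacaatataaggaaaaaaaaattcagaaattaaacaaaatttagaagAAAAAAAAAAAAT
AT2G23672, upstream of *YCF37*, chr2:10063910-10064009: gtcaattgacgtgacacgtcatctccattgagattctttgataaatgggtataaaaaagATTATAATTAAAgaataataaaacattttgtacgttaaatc
AT1G04103, upstream of *MAN1*, chr1:460853-460952: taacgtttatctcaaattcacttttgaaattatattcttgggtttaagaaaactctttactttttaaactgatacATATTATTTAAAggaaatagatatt

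The last pair shows the only summit with a full TGTGNNATG word, in capitals as its reverse complement in AT5G26146, and the only summit in GC-rich sequence, in AT3G06355, where capitals mark every G and C.
AT5G26146 summit, chr5:9136725-9136824: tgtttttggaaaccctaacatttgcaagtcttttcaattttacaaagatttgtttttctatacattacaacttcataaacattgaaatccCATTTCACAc
AT3G06355 summit, chr3:14199600-14199699: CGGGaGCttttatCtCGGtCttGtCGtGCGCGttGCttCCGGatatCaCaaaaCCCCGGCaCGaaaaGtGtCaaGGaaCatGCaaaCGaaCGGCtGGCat

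The 31 summits fell in 29 noncoding genes. Of the summits, 23 were in genes of biotype lncRNA, 8 in genes of biotype ncRNA and 0 in genes of biotype antisense_RNA. Of the 23, 12 summits, in 10 genes, lay in lncRNA genes that the annotation notes as natural antisense transcripts. The share of all lncRNA genes with such a note was not counted, so that nothing is read from this number. By chromosome, 9 lay on chromosome 1, 8 on chromosome 2, 4 on chromosome 3, 5 on chromosome 4 and 5 on chromosome 5. A further 22 shared summits lay in a noncoding and a protein-coding gene at once and were left out by the rule. Before sharing was required, 52 replicate 1 peaks and 54 replicate 2 peaks had a summit of this kind. Of the 52, 31 were shared with replicate 2 (59.6%, beside 80.1% of all replicate 1 peaks), and the 21 that were not had a median fold enrichment of 2.60.

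Depth differed between the genotypes. The peak lists carry no read totals, so the background fragments recovered from each list stand in for depth. The study itself describes low mapping rates in *aba1-6* and called peaks again in subsampled reads of *SUC2::CO:CIT*. It still found more peaks there than in *aba1-6*. The study proposes that low binding could be part of the reason for the near absence of reproducible peaks in *aba1-6*. Those read totals and calls were not used here. The genome-wide background was 11.2 and 10.8 fragments in replicates 1 and 2 of *SUC2::CO:CIT*, and 3.57 and 0.774 fragments in those of *SUC2::CO:CIT aba1-6*, with 21054, 22724, 168 and 258 peaks. At this background the smallest peaks held 23, 22, 11 and 5 fragments. The 2 replicates of a genotype were described as biological, and the lists do not say more about their origin.

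Shared summits were sparse inside noncoding genes. The 3780 noncoding genes covered 2063183 bp, of which 46.8% also lay in protein-coding genes. The 1097535 bp that lay in noncoding genes alone held 28.2 shared summits per Mb. Protein-coding exons held 16.0 per Mb (741 peaks), protein-coding introns 60.3 (1093 peaks) and sequence outside both kinds of gene 280 per Mb (14996 peaks), so that the noncoding genes lay between exons and introns and far below sequence outside genes. No test was made of these densities, because the selection rests on where the summits lay.

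The change in density coincided with the annotated ends. In sequence outside protein-coding genes, the 200 bp before the 5′ end of a noncoding gene held 208 shared summits per Mb (101 summits) and the first 200 bp inside held 16.0 (8 summits). At the 3′ end the last 200 bp inside held 19.7 per Mb (10 summits) and the next 200 bp outside 206 (109 summits). Farther out, between 200 and 1000 bp from either end, densities ranged from 291 to 426 per Mb. Inside, the bin from 800 to 1000 bp after the 5′ end reached 115 per Mb, but on 4 summits in 34726 bp.

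**Figure D1:**
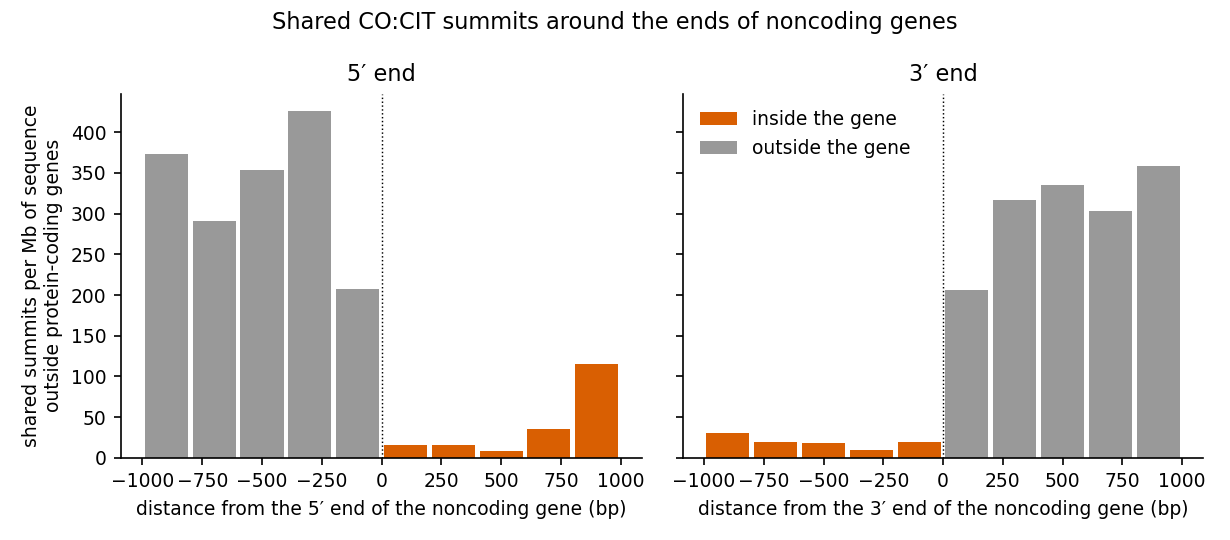
Number of shared *SUC2::CO:CIT* summits per Mb (y axis) in 200 bp bins around the 5′ end (left) and the 3′ end (right) of the 3780 noncoding genes, counted in sequence outside protein-coding genes; inside bins (orange) stop at the other end of the gene, and a summit near several genes was counted for each. Density fell from 208 per Mb just before the 5′ end to 16.0 just inside it, and rose from 19.7 to 206 per Mb across the 3′ end.

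Summits lay close to the boundary on both sides. The selected summits nearest to an end were those in AT5G03915, whose summit was 0 bp from its 5′ end with a fold enrichment of 3.28 and 3.04 in replicates 1 and 2, and in AT4G04077, 1 bp from its 3′ end with 3.20 and 2.70. The nearest shared summits outside lay 2 bp from AT3G04365, with fold enrichments of 2.30 and 2.45, and 2 bp from AT5G09170, with 3.12 and 3.89. In all, 62 shared summits lay within 100 bp outside a noncoding gene, and 14 of the 31 lay within 100 bp inside one. Sets just inside and just outside thus differed by a few bases of annotation, and with the replicate 2 summit instead, 8 of the 31 would have left the gene.

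Longer genes held the peaks more often. A summit of this kind lay in 29 of 3780 noncoding genes (0.767%), namely in 7 of 2727 genes under 500 bp (0.257%), in 11 of 894 genes of 500 bp to under 2000 bp (1.23%) and in 11 of 159 genes of 2000 bp and over (6.92%). Only 2769 of the 3780 genes had any sequence outside protein-coding genes, and the others could not hold such a summit under the rule. From the shortest to the longest class, the genes had 588310, 397146 and 184283 bp of such sequence. Longer genes thus offered more of it per gene, and the shares are not corrected for this. The genes with a summit had a median length of 1432 bp and those without one 345 bp. Among protein-coding genes, of a median length of 2078 bp, 1644 of 27444 (5.99%) held a shared summit. By biotype, 21 of 3480 lncRNA genes (0.603%), 8 of 221 ncRNA genes (3.62%) and 0 of 79 antisense_RNA genes held one. The median length was 343 bp for lncRNA genes and 760 bp for ncRNA genes. Only 4 of the antisense_RNA genes had any sequence outside protein-coding genes. The lncRNA genes had 955778 bp of such sequence and the ncRNA genes 213080 bp, so that ncRNA genes also offered more of it per gene.

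Within the genes, 25 summits lay in an exon of the noncoding transcript and 6 in an intron. How much of the noncoding gene sequence is exon was not counted, so that nothing is read from this split. In steps of 20% of the gene length from 5′ to 3′, there were 8, 7, 4, 3 and 9 summits. Of the 14 summits within 100 bp of an end, 6 were near the 5′ end and 8 near the 3′ end. The median distance from the nearer end was 166 bp, with a range from 0 to 3157 bp. The summits deepest inside were those of AT2G24755, where the summit lay 3157 bp from the 5′ end of 7767 bp, and in AT1G33415, where it lay 5001 bp into 7662 bp.

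**Figure D2:**
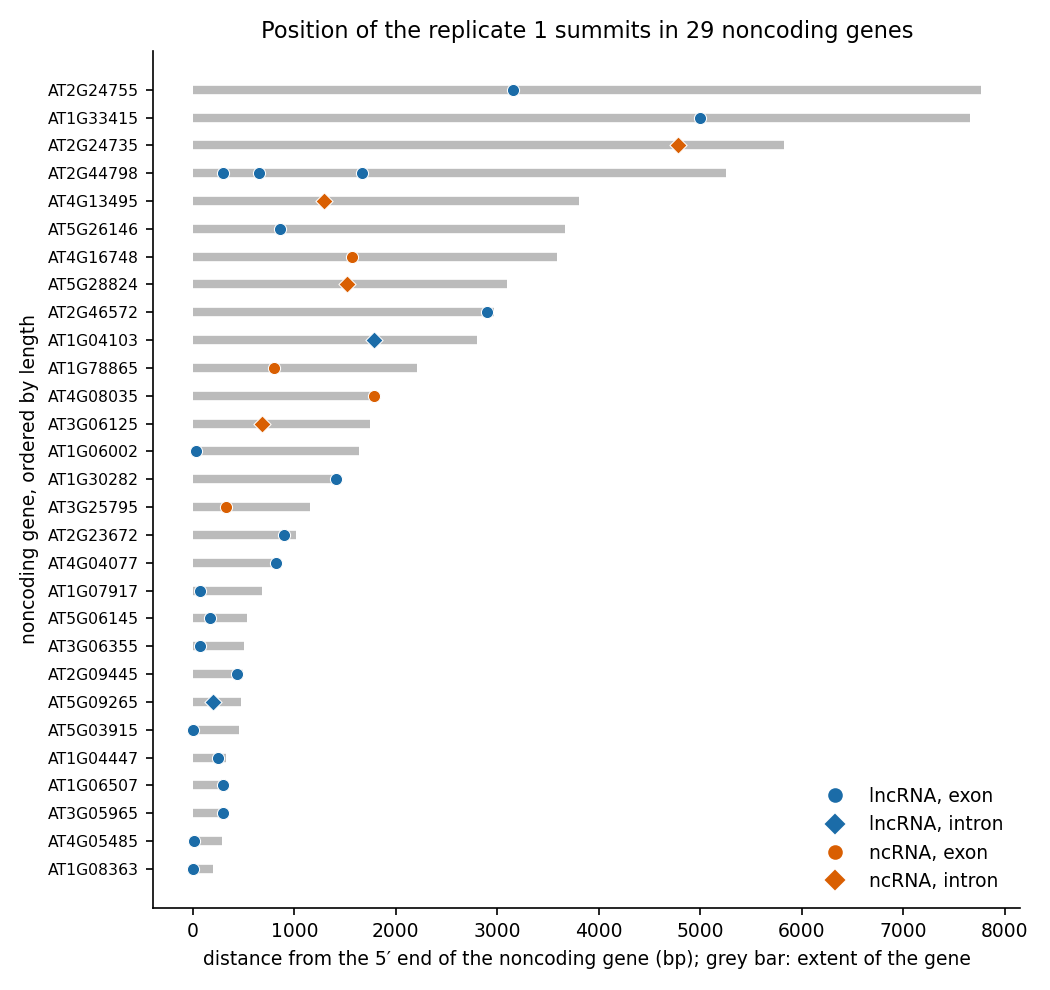
Position of the 31 replicate 1 summits (points) along the 29 noncoding genes (grey bars, ordered by length); the x axis gives the distance from the 5′ end in bp, colour the biotype and shape whether the summit lay in an exon or an intron. Of the 31 summits, 14 lay within 100 bp of an end, and AT2G44798 carried 3 summits, all in the 5′ part of the gene.

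The peaks were of ordinary height. The fold enrichment divides the fragments found at a summit by those of the background there, each raised by a pseudocount of 1. Its median over the 31 peaks was 3.12 in replicate 1 and 3.11 in replicate 2, beside 3.28 and 3.36 over all shared peaks. The range was 2.21 to 4.93 in replicate 1 and 2.28 to 5.07 in replicate 2. The median peak rested on 37 and 36 fragments and was 262 and 296 bp wide, compared with 39 and 39 fragments and 339 and 364 bp for all shared peaks. At a −log10 q-value of at least 5 in both replicates, 22 of the 31 were left (71.0%, beside 76.6% of all shared peaks).

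Since a call in both replicates was required, the closeness of the replicates is a description of the selected peaks. The exact 95% Poisson intervals of the fragments overlapped between replicates at all 31 peaks. Without AT3G06355, which overlaps an rRNA gene, the ratio of fold enrichment in replicate 2 to that in replicate 1 had a median of 1.03 and ranged from 0.597 to 1.38. The lowest ratio was that of AT1G06507, where 49 fragments in replicate 1 (fold enrichment 4.11) stood beside 28 in replicate 2 (2.45). The rank of the peaks was not stable: over these 30 peaks, which share the same 2 libraries, Spearman's rho of the fold enrichments was 0.16 and Pearson's r 0.45. Over all 16861 shared peaks rho was 0.58 and r 0.64. The values were 0.44 and 0.54 for the 741 in protein-coding exons, and 0.58 and 0.62 for the 1093 in introns. The 30 peaks were few and spanned a narrower range of fold enrichment than all shared peaks, and whether this lowered the values was not tested. Intervals cover counting error only, and no molecular identifiers are described in the sources used here.

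**Figure D3:**
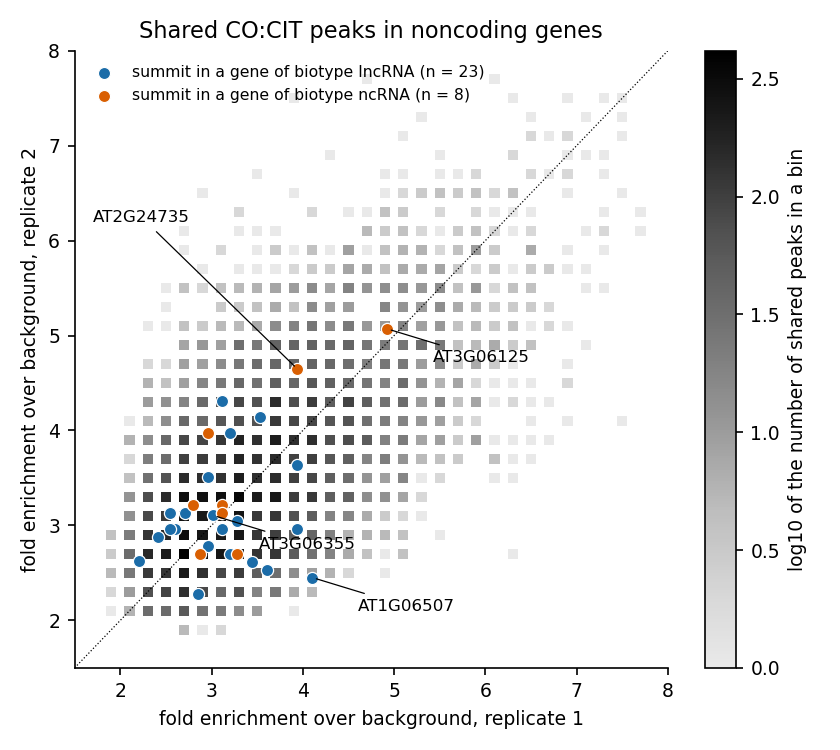
Fold enrichment over background in replicate 1 (x axis) and replicate 2 (y axis) of the 31 peaks with the summit in a noncoding gene (coloured by biotype), over the density of all shared peaks (grey squares, bins of 0.2, log10 of the number per bin; peaks above 8 are not drawn). The dotted line marks equal values; the 31 points lay from 2.21 to 5.07, in the lower and middle part of the cloud.

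The strongest peak after that in AT3G06355 lay in AT3G06125, an ncRNA gene on chromosome 3. It held 59 fragments in replicate 1 and 59 in replicate 2, for fold enrichments of 4.93 and 5.07, and the summit was at the same base in both. The summit lay in an intron, 678 bp from the 5′ end of 1749 bp. The nearest protein-coding gene was *MUTE*, which encodes a bHLH factor of the stomatal lineage and whose 3′ end lay 1267 bp away on the same strand. The TGTG words of this window were 2 of the 21 found at the 31 summits.

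AT2G24735 followed, with 47 and 54 fragments and fold enrichments of 3.94 and 4.65. Its summit lay in an intron 4780 bp from the 5′ end of a gene of 5824 bp, and 887 bp upstream of *SDG21*, which encodes a SET domain protein of the family of histone methyltransferases. The GC content of the 200 bp around this summit was 18.5%, and none of the 31 had a lower one.

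AT2G44798 was the only gene with several of the peaks. The annotation notes it as an antisense transcript of AT2G44800, which encodes an oxygenase dependent on 2-oxoglutarate and Fe(II), and its 5252 bp run past the coding gene on both sides. The summits lay 294, 654 and 1668 bp from the 5′ end of the noncoding gene, and 2459, 2099 and 1085 bp beyond the 3′ end of AT2G44800. In that order, fragments were 35, 43 and 47 in replicate 1 and 32, 29 and 42 in replicate 2, and fold enrichments 2.96, 3.61 and 3.94 and then 2.79, 2.54 and 3.63. The summit closest to AT2G44800 was the highest of them in both replicates, while the order of the other 2 turned.

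The next peaks lay in AT2G24755, AT3G05965 and AT1G78865. AT2G24755 is noted as antisense to a pair of pseudogenes, AT2G24750 and AT2G24760, and its summit lay between them, 351 bp from the one and 690 bp from the other. It had fold enrichments of 3.53 and 4.14, but the replicate summits were 499 bp apart, the widest gap among the 31. AT3G05965, with fold enrichments of 3.20 and 3.97, had its summit 12 bp from its 3′ end and 1550 bp beyond *COBL2*, a COBRA-like gene. AT1G78865, with 3.12 and 3.21, had its summit 1226 bp upstream of *UBC35*, a ubiquitin-conjugating enzyme gene. The remaining peaks among the 12 with the highest smaller −log10 p-value were those in AT1G30282, AT2G46572, AT4G08035, AT5G03915 and AT1G04447, with fold enrichments from 2.96 to 3.28 in replicate 1 and from 3.04 to 4.31 in replicate 2.

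Among the genes were a precursor of small RNAs and genes that contain microRNA genes. How many of the 3780 noncoding genes are of these kinds was not counted. AT3G25795, listed with the synonym *TAS4*, is the precursor of trans-acting siRNAs that target MYB transcripts, and it held 35 and 46 fragments, with fold enrichments of 2.96 and 3.97. Its summit lay 325 bp from the 5′ end of 1155 bp, and the nearest coding gene was AT3G25790, a myb-like factor gene 3140 bp away. AT5G26146 contains *MIR156f*, a gene of the microRNA family that represses SPL factors and delays the change from the juvenile to the adult phase. The summit lay 538 bp from *MIR156f*, with 34 and 37 fragments and the lowest fold enrichment of the 31 in replicate 1 (2.21, and 2.63 in replicate 2). AT4G13495 contains *MIR5026* and *MIR850* and overlaps part of *MIR863*, at 235, 1446 and 2336 bp from the summit, and had 33 and 37 fragments, with fold enrichments of 2.79 and 3.21 and replicate summits 454 bp apart.

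AT3G06355 stood apart from the other 30. It ranked 5 among all shared peaks by p-value in replicate 1, with 460 fragments in replicate 1 and 449 in replicate 2, but over a background of 152 and 144 fragments, so that the fold enrichments were 3.02 and 3.11. Its summit lay 75 bp from its 5′ end and 103 bp from the rRNA gene AT3G41979, in sequence of 58.0% GC. The other 30 had 28 to 59 fragments over a background of 10.8 to 14.9. Ribosomal DNA is present in many copies. Whether the fragments counted here include those of other copies was not tested, and how reads with several matches were handled is not given in the sources used here.

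The neighbouring coding genes were met from either side. The nearest protein-coding gene lay downstream of the summit in 16 cases, so that the summit was upstream of its start, and in 15 cases the summit lay beyond its 3′ end. The corresponding share of upstream positions was 51.6% among the 31 and 65.2% among the 14996 shared peaks outside all these genes. A protein-coding start site lay within 1000 bp of 14 summits (45.2%), beside 46.8% of the peaks outside genes. The median distance to the nearest gene was 826 bp, with a range from 5 to 16455 bp, and 694.5 bp outside genes. The neighbour was on the strand opposite to the noncoding gene for 23 of the 31, and for 14 of the 16 with the summit upstream. The 23 include all 12 summits in genes noted as antisense. The same share over all noncoding genes was not counted, so that nothing is read from these numbers.

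Within 300 bp upstream of a start there were 7 summits, each with the noncoding gene on the other strand, likewise without a share over all noncoding genes beside it. The distances were 37 bp for AT1G61240, 67 bp for *LAC6*, a laccase gene, 72 bp for *MAN1*, a glycosyl hydrolase gene, 75 bp for AT1G30280, a DnaJ-domain chaperone gene, 97 bp for *YCF37*, a homologue of a cyanobacterial photosystem gene, 131 bp for *GL3*, the bHLH factor of trichome formation, and 203 bp for AT4G04078. The replicate 2 summit of the peak next to AT1G61240 lay inside that coding gene, so that by this summit the rule would not have kept it. Peaks at these sites were as low as elsewhere among the 31. The one near *LAC6* had 37 and 36 fragments and fold enrichments of 3.12 and 3.13, and the one near AT1G30280 had 37 and 50 fragments and 3.12 and 4.31. The one near *GL3* had 31 and 33 fragments and 2.41 and 2.87, and the one near *MAN1* had 38 and 31 fragments and 2.85 and 2.28, the lowest value in replicate 2.

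In 5 of these 7 cases the noncoding gene is noted as the antisense transcript of that same coding gene. Its replicate 1 summit lay in the part of the antisense transcript that runs past the start of its partner. For *LAC6*, AT1G30280, *YCF37* and AT4G04078 this was the 3′ part, at 97.6%, 98.6%, 88.4% and 99.9% of the length of the antisense gene, and for *MAN1* it was 63.6%. In replicate 2 the summits of AT1G30282, AT2G23672 and AT4G04077 lay beyond the 3′ end of the antisense gene. AT1G33415 had its summit between both its partners, 415 bp upstream of AT1G33420 and 246 bp beyond AT1G33430. In AT1G06002, AT2G44798 and AT5G26146 the summit lay beyond the 3′ end of the partner, at 18, 1085 to 2459 and 686 bp. AT1G08363 and AT5G06145, next to AT1G61240 and *GL3*, carry no antisense note, and their summits lay 3 and 166 bp from their own 5′ ends.

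**Figure D4:**
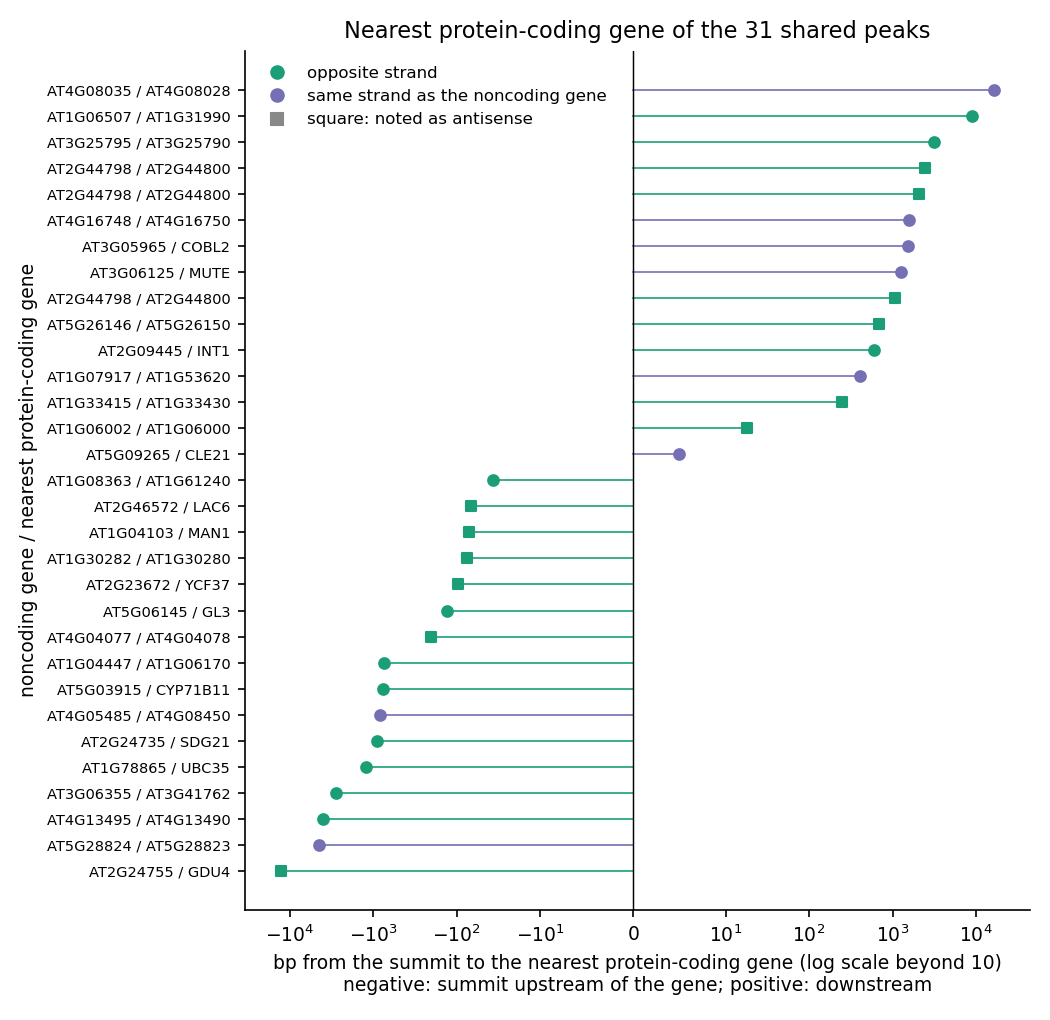
Distance in bp from each of the 31 summits to the nearest protein-coding gene (x axis, logarithmic beyond 10 bp; negative where the summit lay upstream of the gene and positive where it lay downstream), with colour for the strand and squares for genes noted as antisense. Of 16 upstream summits, 7 lay within 203 bp of the coding gene.

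None of the neighbours belonged to the gene lists on photoperiod and flowering (66 genes), the circadian clock (16), ABA synthesis and signalling (51) or the phloem (15), and neither did the antisense partners. The counts were 0 for each list, with 29 distinct neighbours among the 31, while all lists together hold 0.539% of protein-coding genes, so that nothing is read from these counts. Other transcription factor genes next to a summit were AT1G06170, a bHLH gene 749 bp away, and AT4G16750, an integrase-type DNA-binding gene 1569 bp away. Transport and signalling were represented by *INT1*, an inositol transporter gene 593 bp from the summit of AT2G09445, and by *CLE21*, a peptide signal gene 5 bp from that of AT5G09265. The replicate 2 summit of AT5G09265 lay inside the coding gene *CLE21*, so that the rule would not have kept this peak by its replicate 2 summit. For AT2G09445, fold enrichments were 3.94 and 2.96, and for AT5G09265 2.55 and 3.13. The peaks not described so far, in AT5G28824, AT4G16748, AT4G05485 and AT1G07917, had fold enrichments from 2.60 to 3.28 in replicate 1 and from 2.70 to 3.21 in replicate 2, and lay 411 to 4410 bp from their nearest coding gene.

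The summits were poor in G and C. The median GC content of the 200 bp around a summit was 23.5%, with a range from 18.5% to 58.0%, and without AT3G06355 the highest value was 30.5%. At 30 of 31 summits the GC content was lower than that of the noncoding gene as a whole, the exception being AT3G06355. All shared peaks had a median of 21.0%, and 85.0% of them lay below 25%, compared with 21 of the 31 (67.7%). Among shared peaks in protein-coding exons the values were 23.5% and 65.7%, and in introns 21.5% and 83.5%, so that the summits in noncoding genes were closest to those in exons. The dip was local: in windows of 50 bp, mean GC content over the 30 peaks without AT3G06355 was 22.7% at the summit, 34.9% at 300 bp before it and 30.9% at 300 bp after it. The longest run of A and T bases had a median of 16 bp within these 200 bp, and of 17 bp for all shared peaks.

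Noncoding genes contained little sequence of this kind. Of 200 bp windows centred in them, 1.44% had a GC content below 25%, compared with 14.2% outside all these genes, 2.97% in introns and 0.753% in coding exons. Among windows below 25%, a shared summit lay in 16.5% of those in noncoding genes (13 of 79 windows, Wilson 95% interval 9.88% to 26.1%), in 24.6% of those in exons (22.7% to 26.7%), in 29.7% of those in introns (28.0% to 31.4%) and in 30.3% of those outside (29.9% to 30.8%). Between 25% and 30% the shares were 3.84% in noncoding genes (2.50% to 5.85%) and 5.04% outside (4.87% to 5.22%). At 35% and over they were 0.0305% and 0.0261%. Within classes of GC content, the shares in noncoding genes were closer to those outside than the densities per Mb were, and the intervals of noncoding genes and of sequence outside failed to overlap only in windows below 25%. A window was assigned by its centre, so that a window of a noncoding gene could hold a summit lying outside that gene. From the lowest class up, 13, 20, 4 and 1 windows of noncoding genes held a summit, together more than the 31 selected summits. Some of these windows thus held a summit outside the sequence of noncoding genes alone. How far this raised the share of each class was not tested. The intervals treat windows as independent and cover counting error alone.

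**Figure D5:**
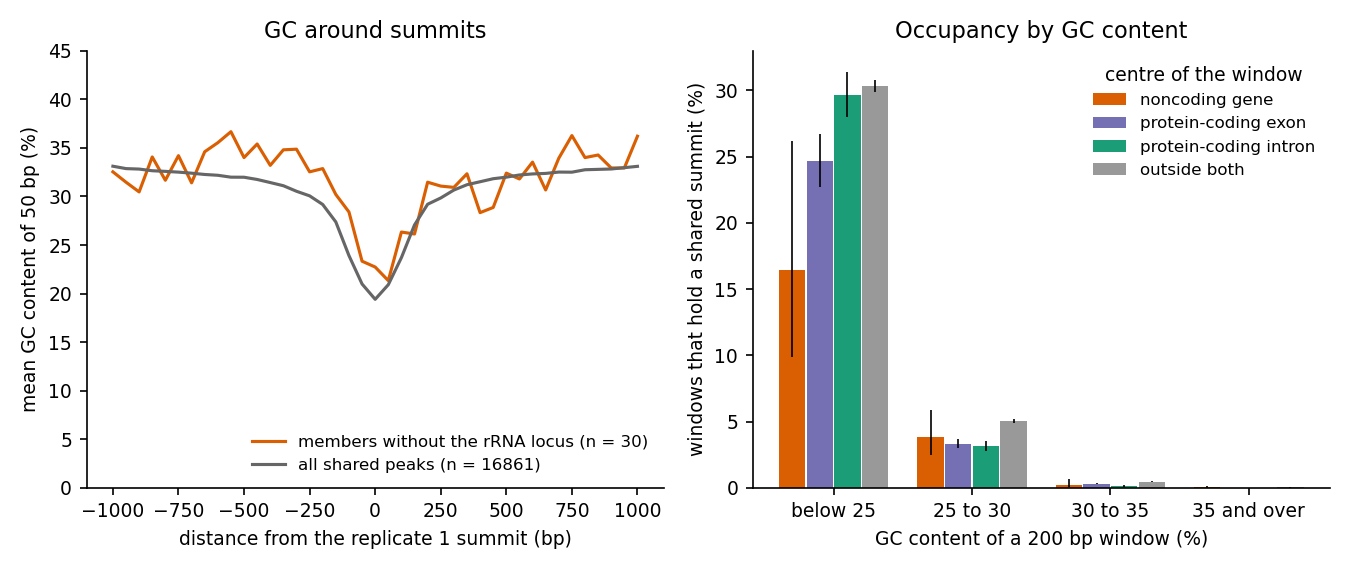
Left, mean GC content in 50 bp windows (y axis) against the distance from the replicate 1 summit for the 30 peaks in noncoding genes without the rRNA locus and for all 16861 shared peaks. Right, share of 200 bp windows that held a shared summit (y axis) by GC content and by where the window was centred, with Wilson 95% intervals as error bars: 16.5% in noncoding genes and 30.3% outside below 25% GC, and under 1% in every class above 30%.

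The TGTG core was found at 17 of 31 summits (54.8%, Wilson 95% interval 37.8% to 70.8%), counted in the 100 bp around the summit as TGTG on either strand. All shared peaks had it in 33.9%, and 100 bp tiles of the noncoding genes themselves in 53.1% (4523 of 8511), or in 37.9% of the 309 tiles with a GC content below 25%. Around the 31 summits there were 21 words, compared with 16.5 in windows of the same width 300 bp to either side. With the summits of replicate 2 as the base the share was 43.3%, and over all replicate 2 peaks with a summit in a noncoding gene, shared or not, it was 35.2%. The CCAAT box occurred at 5 summits (16.1%, beside 13.5% of all shared peaks, 20.7% of the tiles and 11.7% of the tiles below 25% GC). The G-box CACGTG and the evening element AAAATATCT occurred at 0 of 31, and at 0.202% and 1.81% of all shared peaks.

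The comparison with *SUC2::CO:CIT aba1-6* asked whether these regions were also called when ABA synthesis was impaired. A peak of *aba1-6* overlapped 1 of the 31 in replicate 1, beside 0.0593% of all shared peaks, and 1 of the 31 in replicate 2, beside 0.083%. Both times it was AT3G06355, with 361 fragments over a background of 38.6 (fold enrichment 9.14) in replicate 1 and 202 over 8.37 (21.7) in replicate 2. None of the other 30 was overlapped. Had these 30 peaks kept the fragments of replicate 1 of *SUC2::CO:CIT* scaled to the lower background, 9.58 to 18.8 fragments would be present in replicate 1 of *aba1-6*, where 11 made a peak, and 21 of the 30 would reach that number. In replicate 2 of *aba1-6* 2.08 to 4.08 fragments would be present, where 5 made a peak. These are mean numbers, around which counting error would scatter the fragments to either side of the smallest peak. Genotype and depth cannot be told apart for these regions.

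Each library's share of peaks with the summit in a noncoding gene alone was 0.247% and 0.238% in *SUC2::CO:CIT* (52 of 21054 and 54 of 22724 peaks), and 1.79% and 0.388% in *SUC2::CO:CIT aba1-6* (3 of 168 and 1 of 258 peaks). The means were 0.242% ± 0.00661 and 1.09% ± 0.989 (SD, n = 2 each), a difference of −0.84 percentage points. The exact permutation test over the 4 libraries gave a two-sided p of 0.333, the smallest that 2 against 2 libraries allow, so that no difference could be shown. Without replicate 1 of *aba1-6* the difference was −0.145 percentage points. Besides AT3G06355, the *aba1-6* peaks lay in AT2G42388 and AT4G06835, each with 13 fragments and a −log10 q-value below 1, and neither gene held a shared peak of *SUC2::CO:CIT*.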

How the data were processed

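There were 4 peak lists, 2 per genotype. The authors' steps were trimming in fastp, alignment by Bowtie2 against TAIR10.1 and peak calling in macs2 for each replicate with its input (versions not given in the sources used here). The deposited fold enrichment is a ratio with a pseudocount of 1. Significance is deposited as −log10 of the p-value and of the q-value, both from macs2. The deposited score repeats the p-value and was not used, and the authors' summit distance placed each summit. The authors went on to filter peaks by irreproducible discovery rate and greenscreen regions, but the lists used here precede these filters. Their filtered set was smaller than the set of shared peaks used here. How many of the selected peaks it holds was not counted.

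Fragments and background at each summit were solved from the deposited ratio and p-value under a Poisson law (100% of peaks, and 100% of 5000 simulated ones). Gene models and sequence were RefSeq TAIR10.1, the build of the files. Members, gene lists and tests were chosen with earlier results of these data known. Named were the 12 peaks with the highest smaller −log10 p, genes with a symbol, listed neighbours, peaks overlapped in *aba1-6*, the gene with most peaks and the peaks nearest to a gene end. Genes with small RNAs, antisense partners, the other neighbours and the 11 sequences were chosen after their values were seen. A further sequence is not reported here. Alternatives were other thresholds, overlaps, base lists, biotypes, windows, pseudocounts and left-out libraries. Python 3.11.15, numpy 2.4.6, pandas 2.3.3, scipy 1.17.1 and matplotlib 3.10.9 were used.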

Additional observations from a re-analysis of the deposited data

How the results depend on the processing

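The number of regions changed from 31 to 53 where summits that also lie in a protein-coding gene were kept, and to 52 to 54 where a single replicate was used. Their median fold enrichment was 3.31 without the pseudocount and 2.87 to 2.90 from a single replicate. The median GC content was 23.25% at a −log10 q-value of at least 5, 24.5% with summits in coding genes, 24.25% from either replicate alone, 22.0% over 100 bp and 26.5% over 400 bp. The share with TGTG or CACA was 71.0% over 200 bp and 35.2% to 48.1% from a single replicate. Start sites within 1000 bp moved within the interval of the main share under each alternative. Leaving out AT3G06355 was chosen after seeing the data, and the median fold enrichment was again 3.12 and the median GC content 23.5%. The difference between genotypes in library shares was negative under each alternative, from −0.145 to −1.54 when a library was left out, −3.43 at a −log10 q-value of at least 5, −0.604 with lncRNA genes only and −0.358 without AT3G06355, where the exact permutation gave a p of 1. With a replicate block (sign flips of the 2 pairs, exact test) it was −0.844 with a p of 0.5, the smallest this design allows. Regions with few fragments, most of all in *aba1-6*, set the limits of detection.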
